A study of Rattus norvegicus with 3 samples.

Results

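The genes described here encode parts of the mitochondrial respiratory chain and the ATP synthase, and they were followed through single cells of the rat cochlea at 3 postnatal ages. Members were the genes whose symbol starts with Nduf, Uqcr, Cox4 to Cox8 or Atp5, and those starting with Mt-, that reached 10 counts per 1000000 UMIs (CPM) over all kept cells. The rule gave 94 members among 32623 genes, of which 7750 reached the same minimum. Of the members, 81 are nuclear and 13 lie in the mitochondrial genome. The nuclear rows carry 79 symbols, because Cox6b1 and Uqcrb each have 2 member rows, and reads of such near copies may be split between the rows. By name, 34 nuclear members are complex I subunits, 7 are complex I assembly factors (Ndufaf), 2 form the Ndufa4 family, 9 belong to complex III, 13 to complex IV and 16 to the ATP synthase. Another 13 rows matched the symbols but stayed below the minimum, and 4 of these had 0 UMIs. The members just above the minimum were Ndufs1 (12.2 CPM), Ndufaf4 (15.1 CPM) and Ndufaf6 (17.2 CPM), and the matching genes just below it were Ndufaf1 (8.05 CPM), Cox6b2 (7.07 CPM) and Ndufv3 (4.21 CPM).

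The respiratory chain passes electrons from NADH and succinate to oxygen through complexes I to IV and pumps protons across the inner mitochondrial membrane, and the ATP synthase uses the resulting gradient to make ATP. Its subunits come from both genomes: the mitochondrial genome encodes hydrophobic core subunits of complexes I, III and IV and of the ATP synthase, while the nucleus encodes the remaining subunits and every factor needed for assembly. In the cochlea, spiral ganglion neurons and the marginal cells of the stria vascularis, which pump potassium into the endolymph, are known for high oxidative metabolism.

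All 3 libraries came from untreated Sprague-Dawley rats, taken 1, 7 or 14 days after birth (stages P1, P7 and P14), with the tissue of many animals of either sex pooled into 1 library per age. Stage and library therefore cannot be told apart, no test of a difference was possible, and each interval given is an exact 95% interval that covers counting error only. The labels name the cells as greater epithelial ridge cells, while the methods describe the dissociated basal membrane after dissection away from spiral ganglion, ligament and stria, with dead cells and erythrocytes removed. The marker genes went against the single cell type of the label, since only 575 of 30641 kept cells fell in clusters led by cochlear epithelial markers.

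Of the kept cells, 12779 were from P1 (median depth 6565 UMIs), 12581 from P7 (6878 UMIs) and 5281 from P14 (1614 UMIs). Between 16 and 53 cell barcodes were shared by any pair of libraries. Clusters with markers of a cell type were joined into 8 broad classes, each named only as like that type: connective tissue (13635 cells), glia (4820), endothelium (1261), pericyte (673), epithelium (575), macrophage (532), neuron (295) and lymphoid cells (290). The remaining 8560 cells stayed unnamed. The neuron-like class was nearly absent after P1 (288, 0 and 7 cells), and the lymphoid-like class was found almost only at P14 (1, 2 and 287 cells). Within the connective-like and glia-like classes different clusters held most cells of each stage (clusters 0 and 3, then 2, 8 and 11, then 5 and 12, and clusters 6, 1 and 20), so a difference between stages within these classes is also a difference between clusters.

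The summed level of the nuclear members was nearly the same at the 3 stages, while that of the Mt- members was lowest at P14. Nuclear members took 28253 CPM at P1, 26423 CPM at P7 and 27083 CPM at P14. The 13 Mt- members took 75105 CPM at P1, 87279 CPM at P7 and 46585 CPM (46461 to 46709) at P14. The nuclear sum at P14 was thus 0.959 times that at P1, whereas the Mt- sum was 0.620 times that at P1 and 0.534 times that at P7. As a ratio of UMIs, nuclear to Mt- members stood at 0.376 at P1, 0.303 at P7 and 0.581 at P14.

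Depth differed between the stages, and its part in these sums was not tested. A cell was kept only with less than 25% of its UMIs on Mt- genes, which caps the Mt- sum. Among cells with 1000 to under 2500 UMIs only (411, 730 and 3394 cells, a window chosen after the values were seen), Mt- members took 116304 CPM at P1, 113180 CPM at P7 and 45848 CPM at P14. In this window the nuclear sums were 22515, 22730 and 24839 CPM and the ratios 0.194, 0.201 and 0.542. Among these cells the Mt- sum was thus again lowest at P14, whereas it was not higher at P7 than at P1. The window took 411 of 12779 kept cells at P1 and 730 of 12581 at P7, but 3394 of 5281 at P14. At P1 and P7 its cells lay below the median depth of the stage, and cell types were not matched. Beside the members, 82 ribosomal protein genes summed to 213388, 158381 and 121435 CPM and 17 dissociation stress genes to 5069, 2830 and 3324 CPM, and their part in the differences was not tested.

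Gene by gene, differences between stages were read as log2 ratios of CPM with 10 CPM added, and a gene was counted as higher or lower when its ratio reached 0.5 in size. From P1 to P7, 2 of 81 nuclear members were higher and 3 lower, where 17.7% of all 7750 genes were higher and 11.4% lower. At P14 against P1, 9 were higher and 17 lower (all genes 27.7% and 18.9%), and at P14 against P7, 11 were higher and 17 lower (22.6% and 20.2%). As shares of the 81 nuclear members, these counts are 2.47% and 3.70%, 11.1% and 21.0%, and 13.6% and 21.0%, so that the share of higher members lay below that of all genes in each comparison and the share of lower members lay below it from P1 to P7 and close to it at P14. The median nuclear log2 ratio was -0.03, -0.10 and -0.10 in the 3 comparisons, beside 0.09, 0.08 and 0.02 over all genes. In the window of 1000 to under 2500 UMIs 80 nuclear genes met the rule, and at P14 against P1 19 were higher and 10 lower, or 23.8% and 12.5%, where 31.2% of all 8493 genes were higher and 17.2% lower. The nuclear median was 0.08 there, beside 0.14 over all genes. At P7 against P1 5 of the 80 were higher and 2 lower (all genes 20.5% and 15.8%), and at P14 against P7 16 were higher and 11 lower (27.8% and 16.8%).

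**Figure D1:**
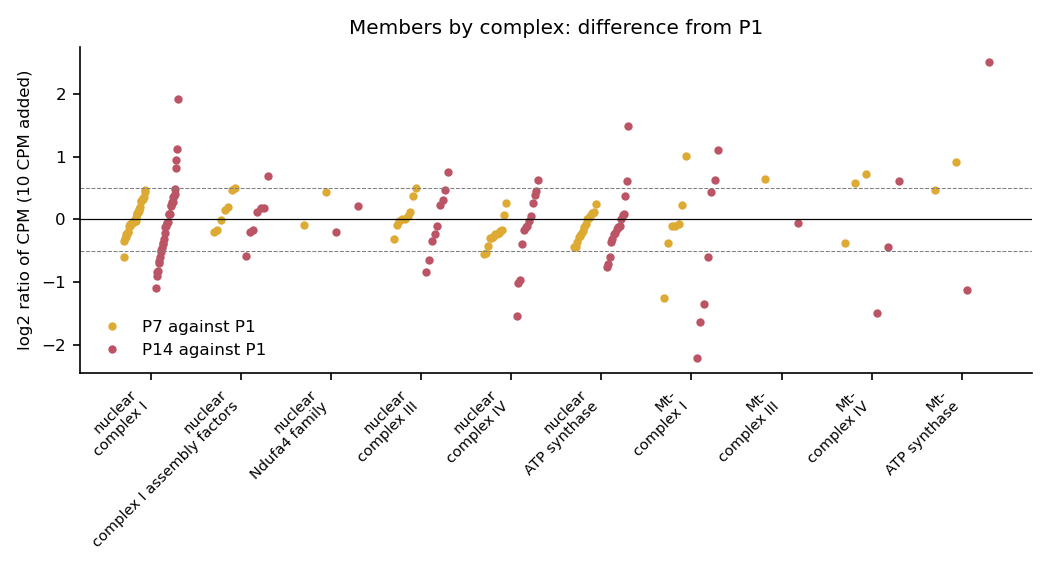
Log2 ratio of CPM (10 CPM added) of every member, grouped by genome and complex on the horizontal axis, for P7 against P1 (yellow) and P14 against P1 (red), with 1 point per gene and dashed lines at 0.5 and -0.5. Nuclear members stayed between -0.60 and 0.51 at P7 and spread from -1.54 to 1.91 at P14, and Mt- members ranged from -2.21 to 2.51 at P14.

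Among the Mt- genes, the messenger levels did not move together. Mt-nd1 and Mt-nd2 encode complex I subunits and are the first protein genes after the ribosomal RNA genes. Mt-nd1 was at 6686 CPM at P1, 2803 CPM at P7 and 2135 CPM at P14, and Mt-nd2 at 7076, 6562 and 1517 CPM. The first was low from P7 on (log2 ratio -1.64 at P14 against P1), and the second was low only at P14 (-2.21). Mt-nd3, also of complex I, followed at 710, 547 and 272 CPM (-1.35).

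Of the 3 mitochondrially encoded subunits of complex IV, Mt-co3 fell from 14937 CPM at P1 through 11542 CPM at P7 to 5312 CPM at P14 (-1.49). Mt-co2 was highest at P7, with 11734, 19313 and 8605 CPM, and its ratio at P14 against P1 (-0.45) did not reach the threshold. Mt-co1, the subunit with the oxygen-reducing center, went the other way, with 6087, 9091 and 9359 CPM (0.62). Within the Mt- UMIs, the share of Mt-co1 was 8.10% at P1, 10.4% at P7 and 20.1% at P14, while that of Mt-nd1 was 8.90%, 3.21% and 4.58%.

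Mt-cyb, the only complex III subunit of this genome, was at 8586 CPM at P1, 13390 CPM at P7 and 8220 CPM at P14, so that P1 and P14 were close together (-0.06). Mt-atp6 of the ATP synthase was at 12611, 17404 and 5748 CPM (-1.13). Its neighbour Mt-atp8, whose coding sequence overlaps that of Mt-atp6, was at 50.6, 104 and 336 CPM, the largest log2 ratio of any member at P14 against P1 (2.51). Mt-nd4l overlaps Mt-nd4 in the same way and was at 197, 408 and 433 CPM (1.10), while Mt-nd4 was at 5895, 5595 and 3897 CPM (-0.60). Mt-nd5 was at 438, 405 and 595 CPM (0.43), and Mt-nd6, which lies on the opposite strand, at 97.5, 115 and 157 CPM (0.63). Both short overlapping genes were thus higher at P14 while their longer partners were lower, and reads assigned to genes that overlap are uncertain.

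In all, 5 Mt- members were higher and 1 was lower at P7 against P1, 4 were higher and 6 lower at P14 against P1, and 2 were higher and 7 lower at P14 against P7. As shares of the 13 genes, 30.8% were higher and 46.2% lower at P14 against P1 (all genes 27.7% and 18.9%), 15.4% and 53.8% at P14 against P7 (22.6% and 20.2%), and 38.5% and 7.69% at P7 against P1 (17.7% and 11.4%). The share of higher Mt- genes at P14 against P1 was thus near that of all genes, and the share of lower ones was above it. For 10 of the 13 genes the sign at P14 against P1 was the same in the 6 classes with enough cells at each stage (connective, glia, epithelium, endothelium, pericyte and macrophage). The same count was not made for all genes. Mt-nd2, Mt-co2, Mt-atp6, Mt-co3 and Mt-nd3 had ratios below 0 in all 6, and Mt-co1, Mt-atp8, Mt-nd4l, Mt-nd5 and Mt-nd6 had ratios above 0 in all 6. Mt-nd1 and Mt-nd4 were below 0 in 5 classes and above 0 in the epithelium-like class (0.02 and 0.54), and Mt-cyb was above 0 in 5 of 6. The ratio of Mt-atp8 ran from 2.13 in the macrophage-like to 3.05 in the epithelium-like class, and that of Mt-nd2 from -2.30 to -1.10 in the same classes. At P7 against P1, Mt-nd1 ran from -1.31 to -0.95 over the 6 classes. These classes share each stage's library and are not replicates of it. At matched depth (1000 to under 2500 UMIs), Mt-atp8 kept its order at 94.3, 121 and 357 CPM. Mt-nd4l was again lowest at P1 (288, 554 and 450 CPM). In CPM, Mt-co1 was there close at P1 and P14 (8696, 11693 and 8819 CPM). Mt-nd5 (595, 428 and 525 CPM) and Mt-nd6 (164, 118 and 156 CPM) were not higher at P14 than at P1. The Mt- sum of these cells was 116304 CPM at P1 and 45848 CPM at P14. As a share of Mt- UMIs, Mt-co1, Mt-nd5 and Mt-nd6 thus each remained higher at P14 than at P1.

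**Figure D2:**
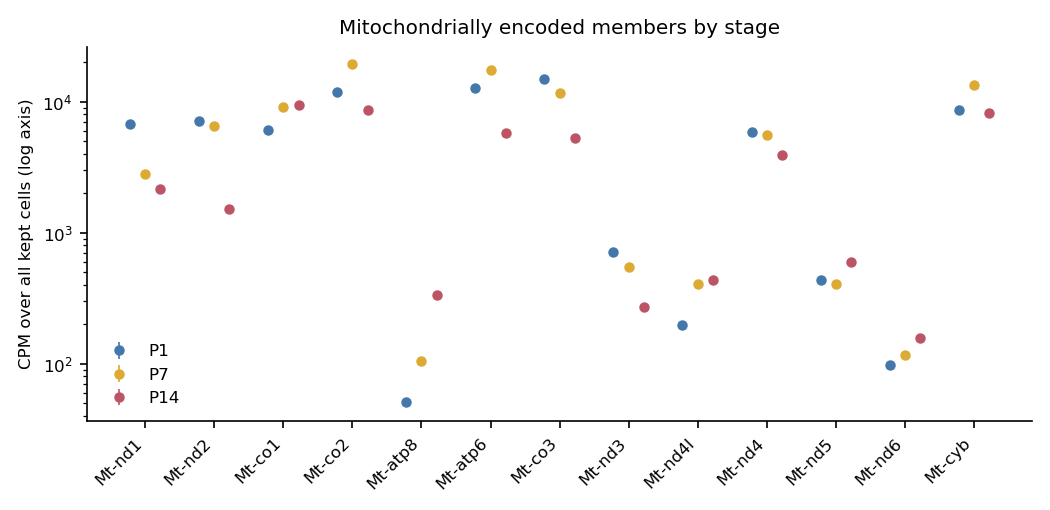
CPM of the 13 Mt- members over all kept cells at P1 (blue), P7 (yellow) and P14 (red) on a log axis, 1 point per library, with exact Poisson intervals that are mostly smaller than the points. Mt-nd1, Mt-nd2, Mt-nd3 and Mt-co3 step down to P14, and Mt-atp8 and Mt-nd4l step up.

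Complex I held the widest set of nuclear members. Its 34 subunits summed to 7821 CPM at P1, 7895 CPM at P7 and 7279 CPM at P14. At P14 against P1, 4 of the 34 were higher and 8 lower (all genes 27.7% and 18.9%). The accessory subunit Ndufc1 was at 44.1, 57.2 and 193 CPM, the highest ratio of any nuclear member (1.91). Ndufb4 (125, 119 and 285 CPM), Ndufa3 (94.8, 75.3 and 193 CPM) and Ndufs5 (150, 144 and 273 CPM), which are accessory subunits too, were likewise close at P1 and P7 and higher at P14. The accessory subunit Ndufa12 was at 298, 252 and 154 CPM (-0.91). Ndufa6 had already dropped at P7, with 228, 147 and 123 CPM. Ndufa9 was at 122, 117 and 65.0 CPM (-0.82 at P14 against P1 and -0.76 against P7). Further lower subunits were Ndufv1, Ndufb5, Ndufb8 and Ndufs3, and of these Ndufv1, which binds NADH, and Ndufs3 are core subunits.

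Among the 7 assembly factors, whose sum was 223, 236 and 223 CPM, Ndufaf3 was higher at P14 than at P1 (25.1, 38.9 and 47.0 CPM) and Ndufaf5 lower (-0.58). Ndufaf7 was higher at P7 only, at 13.6, 23.6 and 16.7 CPM, near the minimum for members. At P7 the complex I subunits Ndufab1, the mitochondrial acyl carrier protein (158, 222 and 213 CPM), and Ndufv2 (182, 251 and 156 CPM) were among the 5 nuclear members with the highest ratio, but neither reached the threshold (0.47 and 0.44).

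The 9 complex III members summed to 2903, 2905 and 3298 CPM. Uqcr10, a small subunit, was at 408, 327 and 700 CPM, and the Rieske iron-sulfur protein Uqcrfs1 was lower at P14 than at P1 (-0.84). The core protein Uqcrc2 peaked at P7, with 143, 207 and 120 CPM. The major Uqcrb row showed 454, 474 and 532 CPM, while the minor row was at 15.6, 23.3 and 6.36 CPM, so only the minor copy was counted as lower.

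Complex IV members summed to 7591, 6325 and 7252 CPM. Cox7a2l, a relative of Cox7a2 known for joining complexes III and IV into supercomplexes, was at 652 CPM at P1, 443 CPM at P7 and 218 CPM at P14, the lowest ratio of any nuclear member (-1.54). Its paralogue Cox7a2l2 was at 564, 459 and 681 CPM, so that the share of Cox7a2l in the UMIs of the pair went from 53.6% over 49.1% to 24.2%. Cox6a1, the non-muscle isoform of subunit 6A, was at 605, 417 and 296 CPM, while the muscle isoform Cox6a2 took 0.0285% of the pair over all cells. Cox7c was higher at P14 than at P1 (0.63), and of the 2 Cox6b1 rows the minor one was lower (60.6, 49.9 and 26.1 CPM) while the major one was at 433, 380 and 596 CPM.

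The 16 ATP synthase members summed to 8576, 7974 and 8031 CPM. Atp5me, subunit e of the membrane part, was at 233, 189 and 669 CPM (669: 654 to 684), a ratio of 1.48 at P14 against P1. Of the 5 subunits of the catalytic part, Atp5f1a (alpha) was lower at P14 against P1, at 371, 384 and 223 CPM (-0.71), as was Atp5f1c (gamma; -0.59). The catalytic subunit beta, Atp5f1b, was at 559, 466 and 562 CPM (0.01), and Atp5f1d (-0.13) and Atp5f1e (0.07) did not reach the threshold either. Atp5po, which links the catalytic part to the stalk, was lower (-0.76). Atp5mf (529, 388 and 476 CPM) and Atp5md (124, 89.2 and 164 CPM), both of the membrane part, had their lowest level at P7, short of the threshold against P1 (-0.44 each). The 3 genes Atp5mc1, Atp5mc2 and Atp5mc3 encode the same mature subunit c, and the share of Atp5mc3 in their UMIs was 14.8, 16.2 and 23.0% at the 3 stages.

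At P14 against P1, 23 of 81 nuclear members had the same sign in each of the 6 classes, a count that was not made for all genes. Of these, 5 passed the threshold in all 6 classes. Ndufc1, Atp5me, Ndufb4 and Ndufa3 were higher and Cox7a2l was lower by 0.5 or more at P14 against P1 in all 6, that is 4 and 1 of 81 members beside 7.02% and 3.78% of all genes. The ratio of Ndufc1 ran from 1.36 in the pericyte-like to 2.52 in the epithelium-like class, that of Atp5me from 1.18 to 2.48, and that of Cox7a2l from -1.80 to -1.03. At P14 against P7, Uqcr10 joined the higher and the minor Uqcrb row the lower members (5 and 2 of 81, all genes 4.95% and 4.18%), and at P7 against P1 no member passed in all 6 (all genes 3.32% and 2.18%). At matched depth the ratios at P14 against P1 were 2.27 for Ndufc1, 1.74 for Atp5me, 1.36 for Ndufb4, 1.44 for Ndufa3 and -1.08 for Cox7a2l.

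The promoter of Atp5me, shown because this gene had the highest P14 against P7 ratio of the nuclear members (1.77), was taken from RefSeq (build GRCr8, chr14:1464610-1464909, plus strand, 250 bases before to 50 after the start). Capitals mark letters of motifs known for nuclear respiratory genes, searched on both strands: CGCNTGCG (NRF1), CCGGAAG (ETS family), AAGATGGCG (YY1) and ACGTG (the core recognized by HIF factors). Matches of different motifs did not overlap in the windows shown here.
Atp5me: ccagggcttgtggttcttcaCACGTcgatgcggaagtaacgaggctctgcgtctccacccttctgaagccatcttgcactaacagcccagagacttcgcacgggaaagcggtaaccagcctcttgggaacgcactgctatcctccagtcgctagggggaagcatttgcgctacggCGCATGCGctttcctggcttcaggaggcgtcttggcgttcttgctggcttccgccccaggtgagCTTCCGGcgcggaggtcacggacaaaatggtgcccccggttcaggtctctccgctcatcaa
The window held 1 NRF1 match 75 bases before the start, 1 ETS match on the opposite strand and 1 ACGTG match. Windows were found for 67 of the 79 nuclear symbols, and Cox4i2, Cox6a1 and Uqcrb were among those without one. The NRF1 motif was in 22 of the 67 member windows (32.8%), beside 19.1% of the windows of genes at 10 CPM or more and 8.19% of all 27457 windows. The ETS motif was in 17 (25.4%, beside 20.1% and 9.21%), the YY1 motif in 10 (14.9%, beside 4.55% and 1.92%) and ACGTG in 19 (28.4%, beside 27.4% and 19.7%).

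Between cell classes the neuron-like cells stood highest for both genomes. At P1, the stage that held nearly all of them in the main clustering, their nuclear members summed to 53692 CPM. The other 6 classes of that stage lay between 25221 CPM (connective) and 33903 CPM (pericyte). Over all stages the nuclear sum of neuron-like cells was 53744 CPM. It ran from 45045 to 61516 CPM over the alternatives, which include other scalings and clusterings. Their Mt- members summed to 126309 CPM, with the other classes from 67064 CPM (connective) to 105254 CPM (glia). The median depth of neuron-like cells at P1 was 21170.5 UMIs, beside 4128.5 (glia) to 9076 (endothelium) in the other classes, and its part was not tested. Against all other kept cells 62 of 81 nuclear members were higher in neuron-like cells and 2 lower (all genes 17% and 35.2%), and 10 of 13 Mt- members were higher. Of the 8 classes, the neuron-like had the highest level of 66 nuclear and 10 Mt- members, a count that was not made for all genes.

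With all stages pooled, Cox5a, Cox5b and Atp5mc1 were among the 10 nuclear members whose level varied most between classes. Cox5a and Cox5b, subunits 5A and 5B of complex IV, reached 1022 and 1947 CPM in neuron-like cells, where the lowest class (connective) had 216 and 499 CPM. Atp5mc1 was at 1494 CPM in neuron-like cells and at 366 to 594 CPM in the other 7 classes, while Atp5mc2 was lower there (633 CPM) than in any other class (759 to 1256 CPM). Accordingly Atp5mc1 gave 53.0% (52.3 to 53.8%) of the UMIs of the 3 subunit c genes in neuron-like cells and 24.3 to 32.3% in the others. Single stages went beyond these pooled levels. At P14, Atp5mc2 was at 571 CPM in connective-like and 484 CPM in pericyte-like cells, and Atp5mc1 at 1043 CPM in epithelium-like cells. The Atp5mc1 share in the other classes was no more than 34.6% at any stage (pericyte-like, P14). Atp5md (327 CPM) was highest in the neuron-like class as well.

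Lymphoid-like cells, nearly all from P14, were the class with the least Mt- signal. At P14 their Mt- members summed to 28920 CPM, with the other classes of that stage from 43866 to 109004 CPM, whereas their nuclear members summed to 30257 CPM, within the range of the other classes (21376 to 52346 CPM). Against all other cells 9 of 13 Mt- members were lower and 1 higher in lymphoid-like cells (all genes 42.5% lower and 19.1% higher), and 18 of 81 nuclear members were higher and 10 lower. Atp5me (801 CPM) and Ndufc1 (230 CPM) were highest here, and both genes were higher at P14 in each class compared. Glia-like cells at P14 had a nuclear sum of 34735 CPM, below only that of the epithelium-like class (52346 CPM). Taken over all stages against all other cells, 7 of 13 Mt- members were higher in them and 0 lower (all genes 10.1% and 19.8%). Of 81 nuclear members, 1 was higher and 4 were lower in glia-like cells. The remaining classes had fewer such nuclear members than the neuron-like and lymphoid-like classes. In the endothelium-like class 1 of 81 was higher and 11 lower (all genes 15.2% and 21.6%), in the macrophage-like class 1 and 4 (9.47% and 31.5%), in the epithelium-like class 2 and 1 (8.85% and 17.2%) and in the connective-like class 0 and 4 (7.96% and 12%). The pericyte-like class had 10 higher and 1 lower (9.57% and 14.4%).

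**Figure D3:**
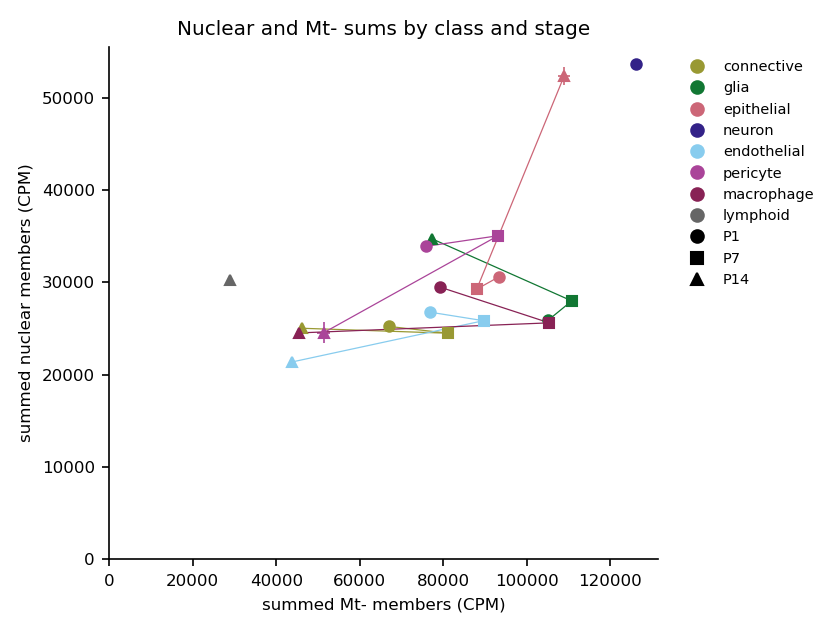
Summed CPM of the nuclear members against that of the Mt- members, both axes from 0, for each broad class (color) at each stage with at least 50 cells (circle P1, square P7, triangle P14; lines join the stages of a class; bars are exact Poisson intervals). Neuron-like cells at P1 (53692 and 126309 CPM) and epithelium-like cells at P14 (52346 and 109004 CPM) lie apart from the other points, and lymphoid-like cells at P14 have the lowest Mt- sum.

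The largest class differences of single members were in the pericyte-like class (cluster 16, led by Rgs5, Kcnj8 and Acta2), and they concerned paralogues. Ndufa4 is a subunit of complex IV despite its name, and Ndufa4l2 is its relative, best known as a gene induced in low oxygen. In pericyte-like cells Ndufa4l2 was at 995 CPM (950 to 1040) at P1, 1430 CPM (1377 to 1486) at P7 and 807 CPM (616 to 1039) at P14. In the same cells Ndufa4 was at 347, 337 and 310 CPM. Elsewhere the order was reversed, with Ndufa4l2 at no more than 23.9 CPM in any other class and stage and Ndufa4 between 722 and 2721 CPM.

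Ndufa4l2 thus made up 74.2% (72.4 to 75.8%), 80.9% (79.6 to 82.3%) and 72.3% (61.4 to 81.6%) of the UMIs of the pair in pericyte-like cells at the 3 stages, and 0.0957% in neuron-like cells. Of 329 pericyte-like cells at P1, 311 had a UMI of Ndufa4l2, 200 of Ndufa4 and 187 of both, and 40 of the 329 were marked as doublets. Among the unmarked cells, 155 of the 278 with a Ndufa4l2 UMI also had one of Ndufa4. In connective-like cells of P1, with a median of 6365 UMIs beside 5233 UMIs in pericyte-like cells, 1.12% had a UMI of Ndufa4l2 and 98.5% one of Ndufa4. At P7 the pericyte-like counts were 281, 182 and 180 of 286 cells, and at P14, where the median depth was 1010 UMIs, 36, 15 and 9 of 58. In the class and stage with the next highest Ndufa4l2 (macrophage-like, P7, 23.9 CPM), the pericyte marker Rgs5 was at 42.1 CPM, beside 3116 CPM in pericyte-like cells. Among 31 clusters, Ndufa4l2 ranked first in cluster 16 and next in the unnamed cluster 27 (505 CPM, 100 of its 108 cells from P14), which also held pericyte markers (4004 CPM summed, beside 6645 CPM in cluster 16). Ndufa4 was lowest of all clusters in cluster 16 and next lowest in cluster 27.

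The same class held the alternative isoform of complex IV subunit 4. Cox4i2, known from lung, was at 825, 895 and 982 CPM in pericyte-like cells at P1, P7 and P14, and at 0.804 to 41.8 CPM in the other classes and stages. The common isoform Cox4i1 remained present, at 1790, 1659 and 1036 CPM (818 to 1295). Cox4i2 gave 31.5% (30.3 to 32.9%) of the pair at P1, 35.0% (33.7 to 36.4%) at P7 and 48.7% (40.4 to 57.0%) at P14. Cox6b2, an isoform of subunit 6B that stayed below the minimum for members, was not particular to this class. Over all stages it was at 24.4 CPM in pericyte-like, 18.1 CPM in lymphoid-like and 16.3 CPM in glia-like cells. In pericyte-like cells it was at 13.2, 33.0 and 94.2 CPM at the 3 stages, the last value from 7 UMIs (37.9 to 194 CPM). The paralogues Cox8b, Cox8c and Cox7a1 had 7, 1 and 0 UMIs in all kept cells.

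**Figure D4:**
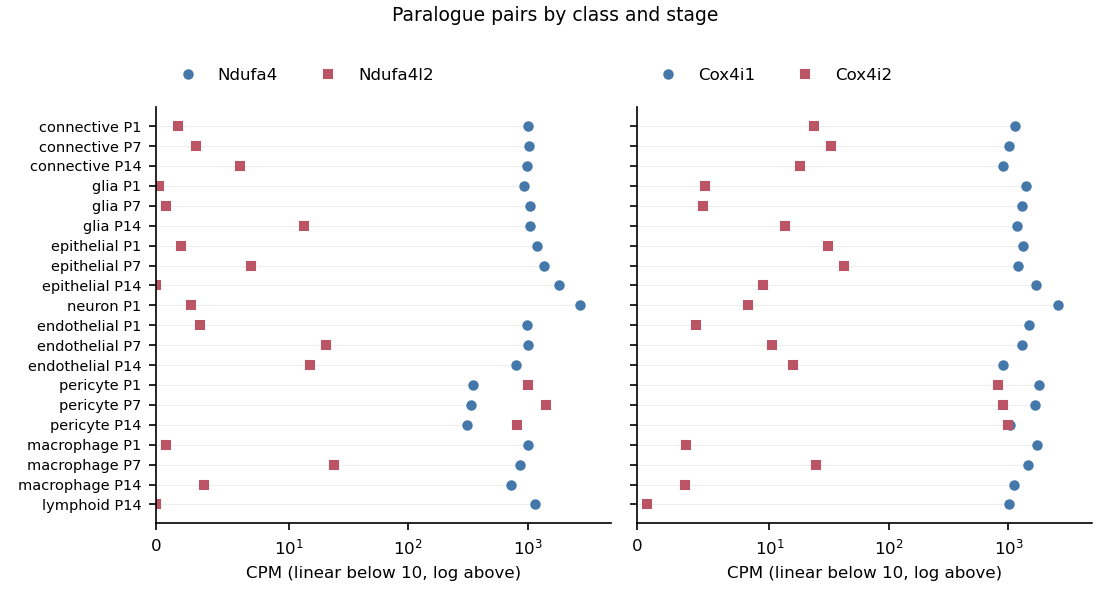
CPM of Ndufa4 and Ndufa4l2 (left) and of Cox4i1 and Cox4i2 (right) in each class and stage with at least 50 cells, on an axis that is linear below 10 CPM and logarithmic above, with circles for the common and squares for the alternative gene. Ndufa4l2 exceeds Ndufa4 only in the 3 pericyte rows, where Cox4i2 lies at 825 to 982 CPM.

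The promoters of this pair, and of Cox4i1, are shown because their levels parted between classes (RefSeq, GRCr8, same window; Ndufa4l2 chr7:65241919-65242218, plus strand; Ndufa4 chr4:40975510-40975809, minus strand; Cox4i1 chr19:65630133-65630432, plus strand), with the motif letters given for Atp5me in capitals.
Ndufa4l2: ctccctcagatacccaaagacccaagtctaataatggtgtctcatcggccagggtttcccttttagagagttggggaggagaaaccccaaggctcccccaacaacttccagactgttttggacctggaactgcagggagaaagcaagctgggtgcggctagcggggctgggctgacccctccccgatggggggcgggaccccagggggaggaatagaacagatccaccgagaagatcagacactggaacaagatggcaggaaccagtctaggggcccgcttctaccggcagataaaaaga
Ndufa4: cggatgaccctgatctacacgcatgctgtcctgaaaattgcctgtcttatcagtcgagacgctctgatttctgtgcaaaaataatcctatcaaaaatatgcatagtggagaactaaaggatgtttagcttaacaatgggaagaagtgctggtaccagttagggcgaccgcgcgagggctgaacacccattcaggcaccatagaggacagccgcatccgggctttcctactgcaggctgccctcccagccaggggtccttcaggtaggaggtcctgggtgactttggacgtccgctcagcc
Cox4i1: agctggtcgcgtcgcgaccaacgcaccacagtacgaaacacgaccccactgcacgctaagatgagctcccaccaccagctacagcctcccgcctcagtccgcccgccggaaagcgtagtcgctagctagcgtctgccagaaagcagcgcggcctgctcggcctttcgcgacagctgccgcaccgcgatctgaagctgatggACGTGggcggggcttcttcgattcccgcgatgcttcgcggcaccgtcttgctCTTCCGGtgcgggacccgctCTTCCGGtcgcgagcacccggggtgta
In these windows the letters of none of the 4 motifs occurred for Ndufa4l2 or Ndufa4, and Cox4i1 had 2 ETS matches just after the start and 1 ACGTG match 49 bases before it.

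Across stages within classes, the epithelium-like cells went apart from the rest. Their nuclear members summed to 30602 CPM at P1, 29259 CPM at P7 and 52346 CPM at P14, and 44 of 81 were higher and 4 lower at P14 against P1 (all genes 26% and 32.5%; median 0.60, all genes -0.10). Their Mt- members summed to 93398, 88061 and 109004 CPM, and in the other 5 classes compared the Mt- sum was lower at P14 than at P1 (0.570 to 0.734 times). In pericyte-like cells 10 nuclear members were higher and 38 lower at P14 against P1 (all genes 34.4% and 30.1%; median -0.47), with 58 cells at P14. At P14 against P1, 34 nuclear members were higher and 8 lower in glia-like cells (all genes 25% and 24.7%), and 14 and 17 in connective-like cells (29.2% and 21.6%). Lower members outnumbered higher ones in endothelium-like cells (9 higher and 30 lower, all genes 35.8% and 16.3%) and in macrophage-like cells (10 and 23, all genes 33.8% and 16.5%). Medians of the nuclear members were -0.03 in connective-like, 0.32 in glia-like, -0.30 in endothelium-like and -0.22 in macrophage-like cells. Those of the Mt- members were -0.20, -0.35, -0.55 and -0.56 in the same order, -0.48 in pericyte-like and 0.54 in epithelium-like cells.

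Of the 53 epithelium-like cells at P14, 26 had a UMI of Kcne1, a potassium channel subunit of strial marginal cells, where P1 and P7 had 3 such cells each. The 5 marginal cell markers summed to 11345 CPM in these 26 cells and to 697 CPM in the other 27. With the Kcne1 UMI, nuclear members summed to 67750 CPM and Mt- members to 151725 CPM at P14. Without it, they summed to 37716 CPM (36564 to 38894) and 68427 CPM (66873 to 70008), and cells without it at P1 had 30327 and 93073 CPM. Without the Kcne1 cells, a split made after the values were seen, the nuclear sum was still higher at P14 than at P1. The Mt- sum was lower, as in the other classes. Cells without a Kcne1 UMI still differed in the 5 marginal cell markers, at 697 CPM at P14 and 35.9 CPM at P1. The part of this marker difference in the higher nuclear sum was not tested. The P14 sums without Kcne1 rest on 27 cells, fewer than the minimum set for classes.

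**Figure D5:**
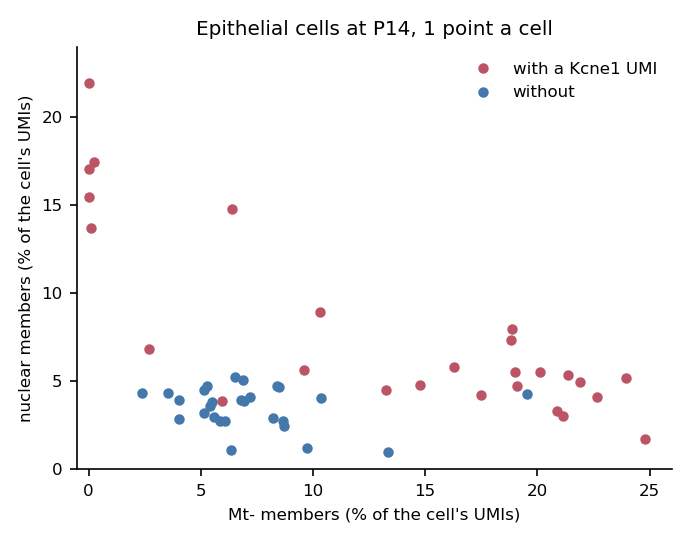
Share of each cell's UMIs on nuclear members against that on Mt- members for the 53 epithelium-like cells at P14, with 1 point per cell, red with and blue without a Kcne1 UMI. Cells with Kcne1 spread along the Mt- axis up to the limit of 25% (median 16.9%), and 5 of them have almost no Mt- UMIs and nuclear shares of 13.7 to 21.9%.

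Genes that work beside the members, taken from lists chosen with earlier results of these data known, are given as counts at P14 against P1, where 27.7% of all genes were higher and 18.9% lower. Of 5 measured genes of complex II and cytochrome c, 1 was higher (Sdhd at 72.2, 125 and 137 CPM) and 1 lower (Sdhb at 213, 219 and 141 CPM). In the tricarboxylic acid cycle 2 of 13 were higher and 0 lower, and among mitochondrial biogenesis genes 3 of 11 were higher and 2 lower. The assembly list had 3 higher and 3 lower of 16, among them Cox17, the copper chaperone for complex IV, at 24.8, 61.3 and 286 CPM (3.09), and Oxa1l, an inner membrane insertase, at 124, 130 and 73.4 CPM (-0.68). Glycolysis genes had 3 higher and 3 lower of 12, with Ldha at 475, 573 and 262 CPM (-0.84).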

How the data were processed

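Single-cell libraries of P1, P7 and P14 cochlear tissue, 1 per stage, were made by the authors with 10x Chromium 3′ chemistry and aligned to rn6 with Cell Ranger, and the deposited matrices hold raw UMI counts per gene and barcode. The submitters' processing notes also name bcl2fastq and Seurat 3.1.1, and the matrix header gives version 3.1.0. Barcodes with 501 to 4999 genes and under 25% Mt- UMIs were kept. Counts were summed over cells by stage and class and divided by all UMIs (CPM), and ratios were taken as log2 with 10 CPM added. Summed UMIs were given exact Poisson intervals, and shares Clopper-Pearson ones. No test was made, with 1 library per stage.

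Cells were clustered in Seurat 5.3.0 (R 4.3.3; 2000 variable genes without the members, 10 components, resolution 0.8) and clusters joined to classes by markers. Values are given for classes with 50 or more cells of a stage. Doublets were marked with Scrublet (scanpy 1.11.5) and left in. It marked 4.87% of cells at P1, 6.16% at P7 and 0.0379% at P14, where the calls were not used. Sums were made in Python 3.11.15 (numpy 2.4.6, scipy 1.17.1, pandas 2.3.3) and plots in matplotlib 3.10.9. Tested on simulated P14 against P1 counts with counting error only, the steps found 90.5% of 2-fold changes among 7750 genes and passed 0% of unchanged genes. Differences between libraries or in cell mix were not simulated, so this 0% is not a rate of false calls in these data.

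Members and lists were chosen with earlier results of these data known. Named with values were all Mt- members, the 5 highest and 5 lowest nuclear members of each stage comparison, the 10 nuclear members with the widest range over classes and the isoform pairs, and further members that passed the threshold were named after their values were seen. A gene under this rule is not reported here. Alternatives varied the Mt- limit, scaling, added CPM, threshold, doublets, clustering and, added later, the depth window and the Kcne1 split.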

Additional observations from a re-analysis of the deposited data

Results flagged for a closer look

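The nuclear members differed in direction between classes at P14 against P1. Their median log2 ratio was 0.60 in epithelium-like cells (53 cells at P14) and -0.47 in pericyte-like cells (58 cells at P14), and the difference was not tested. The Mt- members also had opposite signs, with a median of 0.54 in epithelium-like and -0.56 in macrophage-like cells, and this difference was not tested either. Of the epithelium-like cells at P14, 26 had a Kcne1 UMI, and the Mt- sum of the 27 without it was 68427 CPM, below the 93073 CPM of such cells at P1.

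Signal also lay in rows outside the members. The files hold 24 further rows named only by the record of the mitochondrial genome, without saying which gene each row is. The 2 highest of them summed to 12492 CPM at P1, 14509 CPM at P7 and 2561 CPM at P14, and the other 22 to 6.17, 5.31 and 14.1 CPM.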

How the results depend on the processing

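With 1 library per stage, leaving out a replicate was not possible. No paired analysis was possible because each stage has 1 library. Every alternative listed in the methods was run. A reversal was looked for only in medians of 0.5 or more in size, and none of these changed sign. Smaller values were not checked in this way, and some changed direction. In the window of 1000 to under 2500 UMIs, the Mt- sum was no longer higher at P7 than at P1. The nuclear sum there was higher at P14 than at P1. Of 238 values of the main results under alternatives, 158 stayed near the reported value and 80 moved, and the cause was not tested beyond what each alternative changes by construction. In the 7 alternatives that can change the order of the classes, the neuron-like class had the highest nuclear and Mt- sums in 7 and the lymphoid-like class the lowest Mt- sum in 7, while the class with the lowest nuclear sum, the connective-like, remained lowest in 2.

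The values that moved are given by setting, with ratios of nuclear to Mt- UMIs as ratios and summed levels relative to P1 as folds. With cells under an Mt- share of 10%, the ratios were 0.414, 0.351 and 0.657, the nuclear folds 0.977 at P7 and 0.979 at P14, the Mt- folds 1.15 and 0.618, the P7 against P1 nuclear median 0.018 (below 0 in 1 class), the folds between the highest and lowest class 2.23 (nuclear) and 3.04 (Mt-), and the Ndufa4l2 share in pericyte-like cells 76.4%. With no limit, they were 0.357, 0.279 and 0.524, then 0.931 and 0.962, 1.19 and 0.656, with 0 nuclear members higher at P7 against P1, 1 class with an Mt- median below 0 in that comparison, and class folds of 1.83 and 4.93. Scaled to UMIs outside Mt- genes, the folds were 0.948 and 0.930, and 1.18 and 0.602, and the class folds 2.30 and 4.69.

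As the mean of each cell's own CPM, the ratios were 0.352, 0.283 and 0.553, the folds 0.968 and 0.926, and 1.21 and 0.590, with 5 members higher at P7 against P1 and 7 at P14 against P7. Over all deposited barcodes, they were 0.360, 0.254 and 0.485, then 0.878 and 0.905, and 1.25 and 0.672, with 0 higher and 6 lower at P7 against P1 and a median of -0.12. Without marked doublets, the P1 ratio was 0.379, the nuclear fold at P7 0.932, the Mt- folds 1.17 and 0.623, the nuclear class fold 2.22, 0 members were higher at P7 against P1, and in pericyte-like cells the Cox4i2 share was 35.0% and the Ndufa4l2 share 83.3%. With 1 CPM added, 5 members were higher at P7 against P1. At a log2 ratio of 1 the higher and lower counts were 0 and 0 (P7 against P1), 3 and 3 (P14 against P1) and 5 and 1 (P14 against P7). Class folds were 2.05 and 4.16 with members among the variable genes, and 2.05 and 3.98 at resolution 0.4, where 1 class had a nuclear median below 0 at P7 against P1.

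In cells with 1000 to under 2500 UMIs, a setting chosen after seeing the data with members chosen again in those cells, the ratios were 0.193, 0.201 and 0.542, the nuclear folds 1.01 and 1.10 and the Mt- folds 0.973 and 0.394. There 5 nuclear members were higher at P7 against P1 (median 0.025), 19 of 80 higher and 10 lower at P14 against P1, and 11 lower at P14 against P7, and the Mt- median at P7 against P1 was -0.31. The split of epithelium-like cells by Kcne1, also chosen after seeing the data, left 27 cells at P14, too few for a median under the minimum of 50 cells. The low depth at P14 limits what small classes show, so members near 10 CPM there rest on few UMIs.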

Other observations

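Cells with many nuclear and almost no Mt- UMIs were found at P14 only. In 8 kept cells of this stage, and in 0 at P1 and P7, nuclear members took over 10% and Mt- members under 1% of the UMIs. Of these, 5 were epithelium-like cells with a Kcne1 UMI, in which nuclear members took 13.7 to 21.9% of the UMIs.

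Among all 31 clusters the lowest Mt- sum was that of an unnamed cluster of 26 cells led by Otos, Ucma and Csap1, with 10430 CPM beside a nuclear sum of 28312 CPM. The highest Mt- sum was that of an epithelium-like cluster of 21 cells, all from P1, led by Acbd7, Calb1 and Pcp4, with 155288 CPM beside 44199 CPM. When the members were kept among the variable genes, a cluster of 21 P1 cells led by the same genes matched the hair cell markers best.

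Over the 20 combinations of class and stage with enough cells, the nuclear and Mt- sums had a Spearman's rho of 0.50 and a Pearson's r of 0.55. Within a stage, Pearson's r was 0.74 over 7 classes at P1, 0.06 over 6 at P7 and 0.88 over 7 at P14. These values are a description, since the points share 3 libraries and a common total. Between all single cells of a stage the shares of nuclear and Mt- UMIs had a rho of -0.03 at P1, -0.08 at P7 and 0.15 at P14. Within single classes and stages it ran from -0.39 (endothelium-like, P7) to 0.23 (connective-like, P14), also a description.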
